A study of Mus musculus with 4 samples.

Results

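The heat shock transcription factor gene Hsf1 and 9 chaperone genes (Hspa1a, Hspa1b, Hspa8, Hsp90aa1, Hsp90ab1, Hspb1, Hsph1, Dnajb1 and Hspd1) were examined in mouse embryonic stem cells depleted of hnRNP K. The 10 genes were chosen by name, as rows of a deposited expression table of 22138 genes, and all 10 were found. TT2 cells, a stem cell line derived from C57BL/6xCBA embryos and labelled female, were grown here without feeder cells in serum with LIF. One group received siRNA against Hnrnpk (n = 2 libraries) and the other a control siRNA (n = 2 libraries). Both groups were therefore transfected, first with 100 nM siRNA and 24 hours later with 50 nM, and RNA was taken about 72 hours later. The protocol in the labels counts this time from the second transfection, while the series' design text does not say from which. The series title places hnRNP K, which binds nucleic acids, in gene silencing by the histone methyltransferase SETDB1, and the comparison asks which transcripts changed when Hnrnpk was depleted.

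Molecular chaperones bind unfolded or partly folded proteins and help them to fold, to be held in solution or to be degraded. HSF1 is the transcription factor that induces many of them when unfolded protein builds up. It is held inactive in part by the chaperones themselves, and when released it forms trimers that bind repeats of the pentamer nGAAn, the heat shock element. HSP70 proteins work with J-domain cochaperones, which deliver substrates, and with nucleotide exchange factors, which release them. HSP90 matures signalling proteins, small heat shock proteins hold unfolded protein without ATP, and HSP60, encoded by Hspd1, folds proteins inside mitochondria and so is not cytosolic.

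Stretches of promoter are shown first, because the heat shock element is the sequence that several of these genes share. RefSeq promoter windows on GRCm38.p6, each from 250 bases before to 50 bases after a transcript start, were found for 6 of the 10 genes: Hspa1a, Hspa1b, Hspb1, Hsph1, Dnajb1 and Hspd1. The windows were searched for pairs of facing pentamers, written GAANNTTC or TTCNNGAA, and for runs of 3, which are GAANNTTC followed directly by NNGAA, or TTCNNGAA followed directly by NNTTC. Each pair reads the same on both strands, the runs are reverse complements of each other, and every run contains pairs. Matches are in capitals, and each stretch reads 5′ to 3′ on the strand of its gene; those of Hsph1 and Hspd1 lie within annotated exons.
Hspa1a, chr17:34972187-34972306, minus strand: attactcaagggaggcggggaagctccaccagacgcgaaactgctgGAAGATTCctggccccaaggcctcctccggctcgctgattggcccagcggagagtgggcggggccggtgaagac
Hspa1b, chr17:34959269-34959388, minus strand: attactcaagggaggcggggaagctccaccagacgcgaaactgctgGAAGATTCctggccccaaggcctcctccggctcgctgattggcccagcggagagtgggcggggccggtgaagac
Hspb1, chr5:135887769-135887888, plus strand: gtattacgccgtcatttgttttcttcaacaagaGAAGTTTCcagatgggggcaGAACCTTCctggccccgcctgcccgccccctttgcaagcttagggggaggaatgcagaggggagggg
Hsph1, chr5:149636287-149636316, minus strand: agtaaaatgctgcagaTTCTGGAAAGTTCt
Hspd1, chr1:55088055-55088084, minus strand: gcggggccTTCCGGAAGGTTCTAGAAcgga

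Of these 6 genes, 5 have a match, at least 1 pair each, and Dnajb1 has none in its windows. The Hspa1a and Hspa1b stretches are the same in all 120 bases, and their whole windows of 300 bases differ at 4, so the 2 genes carry the same pair at positions -104 to -97 from the start. Hspb1 holds pairs at -117 to -110 and at -97 to -90. Hsph1 holds a run of 3 just inside the transcript, at 37 to 49 from its first annotated start and 16 to 28 from its second, and a pair further upstream. Hspd1 holds overlapping runs of 3 at -144 to -132 and -139 to -127 from its second start. These runs lie downstream of its first start, beyond the window of that start. A pair was present in 15.1% of all 32851 promoter windows and a run of 3 in 0.6%. Counted by gene, among 8803 genes with a window that were tested for change, 13.6% held a pair and 0.57% a run of 3. A match is a description of the letters, and a window without one says nothing about binding of the factor.

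**Figure D1:**
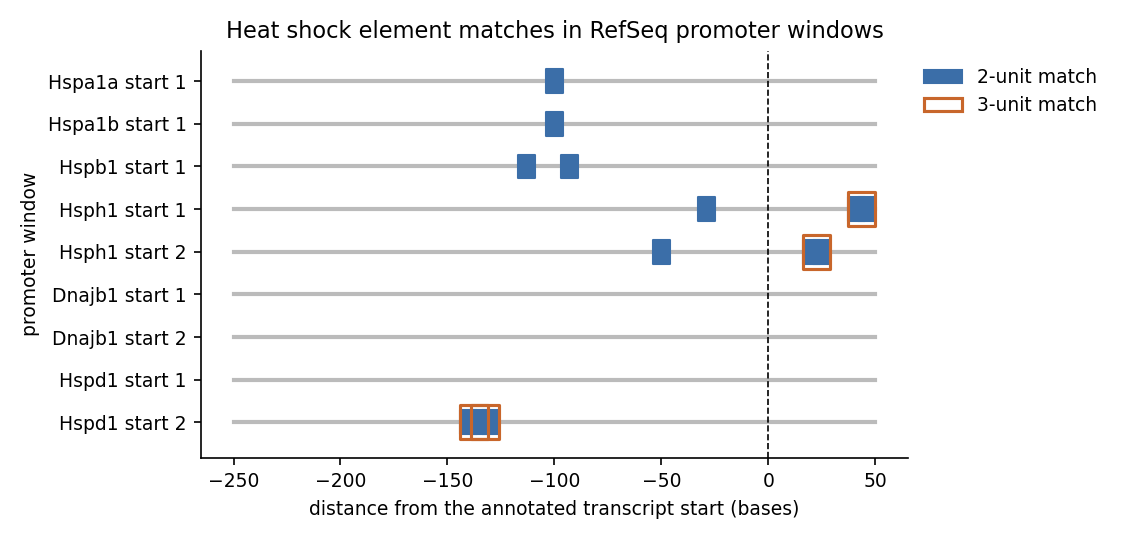
Positions of heat shock element letters in the RefSeq promoter windows of 6 genes; the x axis is the distance in bases from the annotated transcript start, filled blocks are pairs and outlined boxes are runs of 3. Matches lie before the start in Hspa1a, Hspa1b, Hspb1 and the second Hspd1 window, on both sides of it in Hsph1, and are missing from the Dnajb1 windows.

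The measurements were RPKM values, which are read counts divided by transcript length and by library depth. The sum over all genes was 359659 and 362836 RPKM in the control libraries and 377825 and 390467 after Hnrnpk siRNA. Hnrnpk itself stood at 236 and 226 RPKM after control siRNA and at 68.0 and 70.5 RPKM after Hnrnpk siRNA. Its log2 change was -1.73 (limma SE 0.0629, adjusted p = 6.59e-08). Changes are given on the log2(RPKM + 0.5) scale, and a gene was called at a limma adjusted p under 0.05 over the 12486 genes tested. Markers of embryonic stem cells (Pou5f1, Sox2, Nanog and 7 others) were all present. Of the 10, 2 were called higher (Nanog and Dppa5a) and 4 lower (Sox2, Tdgf1, Fgf4 and Utf1), beside 32.2% and 35.0% of all genes. The 10 markers summed to 4094 and 3935 RPKM in control libraries and 4699 and 5022 after Hnrnpk siRNA. Dppa5a alone went from 1320 and 1276 to 2164 and 2451 RPKM, a larger rise than that of the sum. Tested markers of other early cell types were all called higher, beside 32.2% of all genes tested. They were 5 of primitive endoderm, with listed genes summing to 5.27 and 5.21, then 30.6 and 31.3 RPKM. Another 5 were of trophectoderm (30.5 and 36.0, then 68.5 and 73.1). For 2-cell-like cells 5 of 8 listed were measured, all tested (summed 0.558 and 0.539, then 35.2 and 41.4). Those 5 and Pdgfra were below 0.5 RPKM in both controls. They reached the mean of 0.5 RPKM needed for testing only through their rise, so the filter favoured their calls. Below that mean, Sox17, Foxa2 and Cdx2 were also higher after Hnrnpk siRNA, and Elf5 lower. Of 3 tested fibroblast markers 1, Pdgfra, was called higher and 2, Thy1 and Col1a1, lower. The 8 listed summed to 9.93 and 8.45, then 5.09 and 5.43 RPKM, with Col1a2, Col3a1, Postn and Lum below 0.1 RPKM in every library. No marker in these lists was at 0 in all 4 libraries. The part of these other markers in the chaperone values was not tested, and in bulk RNA fewer cells of a type and less RNA per cell cannot be told apart.

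Hsf1, the stress-inducible HSP70 and HSP90 genes, Hspb1 and the HSP70 cochaperones Hsph1 and Dnajb1 rose after Hnrnpk depletion, while the constitutive Hspa8 and Hsp90ab1 and the mitochondrial Hspd1 were not called. Of the 10 genes, all tested, 7 were called higher, none was called lower and 3 were not called. Over all 12486 genes tested, 32.2% were called higher and 35.0% lower, 67.2% in all. The highest rises were those of Hspb1 (2.94-fold by the ratio of means), Hspa1a (2.24-fold) and Hsp90aa1 (1.62-fold), and the median log2 change of the 10 genes was 0.43, against -0.015 over all genes tested. For 9 of the 10 genes both depleted libraries were above both controls, and for none were they below; of all genes tested, 41.2% were above in this way and 43.5% below. Exact permutation of 2 libraries against 2 cannot reach a two-sided p under 0.333, and the calls therefore depend on limma's sharing of variance between genes.

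**Figure D2:**
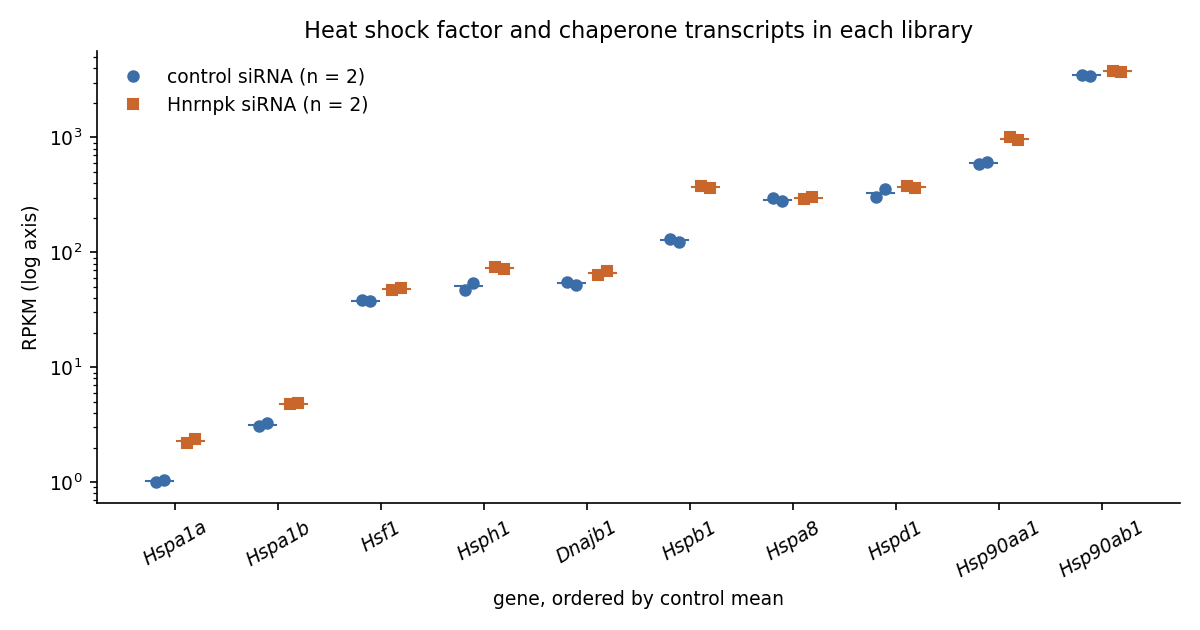
RPKM of the 10 genes in each library on a log axis; points are libraries (2 control siRNA, 2 Hnrnpk siRNA), short lines are group means, and genes run from the lowest to the highest control mean. The levels span from 0.995 RPKM for Hspa1a to 3768 RPKM for Hsp90ab1, and the groups stand clear of each other for Hspb1 at 124 to 130.2 against 367 to 379 RPKM.

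Hsf1 (ENSMUSG00000022556, protein coding, GRCm38 chromosome 15, 76477422 to 76501913, plus strand), the factor itself, was read at 38.5 and 37.4 RPKM in control libraries and at 47.4 and 48.9 RPKM after Hnrnpk siRNA. Both depleted libraries were above both controls. The group means were 37.9 ± 0.747 and 48.2 ± 1.05 RPKM (SD, n = 2 each), and the log2 change was 0.34 (limma SE 0.0611, adjusted p = 0.000827). RNA level does not report on the activity of HSF1, which is regulated as a protein. The 5 tested genes closest to Hsf1 in centred log2 values over the 4 libraries, by Euclidean distance, were Aplf (0.00544), Wdr6 (0.0111), ENSMUSG00000092486, listed with no symbol (0.0138), Chchd10 (0.0162) and Gorasp1 (0.0162). Among the 10 genes alone the closest to Hsf1 was Dnajb1, at a distance of 0.0901, and the other listed chaperones were not part of that search.

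The inducible HSP70 genes Hspa1a and Hspa1b lie close together on chromosome 17 and encode the HSP70 of stressed cells. Hspa1a (ENSMUSG00000091971, 34969190 to 34972156, minus strand) went from 0.995 and 1.04 RPKM to 2.21 and 2.36 RPKM. Hspa1b (ENSMUSG00000090877, 34956436 to 34959238, minus strand) went from 3.06 and 3.27 RPKM to 4.80 and 4.87 RPKM. These were the lowest of the 10 genes in every library, and in both the groups did not overlap. The log2 change was 0.87 for Hspa1a (limma SE 0.0905, adjusted p = 2.44e-05) and 0.54 for Hspa1b (limma SE 0.0816, adjusted p = 0.000272).

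The 2 copies cannot be fully separated. Over 2201 bases their transcripts are 99.2% identical, and the handling of reads that match both is a step not given in the sources used here. Hspa1a also shares 564 exonic bases with Gm20481 on the opposite strand, which was listed at 0.0283 RPKM at most. Summed, the copies gave 4.06 and 4.31 RPKM in control libraries and 7.003 and 7.234 RPKM after Hnrnpk siRNA, with a log2 change of 0.70 (limma SE 0.0784, adjusted p = 3.93e-05). The rise was thus called whether the copies were taken apart or together. The added 0.5 RPKM compresses the Hspa1a change, which was 1.09 with an added 0.1 RPKM.

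Hspa8 (ENSMUSG00000015656, chromosome 9, 40800984 to 40810087, plus strand), the constitutive HSC70 that serves folding in unstressed cells, was at 296 and 278 RPKM in control libraries and at 294 and 305 RPKM after Hnrnpk siRNA. It was the only one of the 10 genes whose groups overlapped. Its log2 change of 0.060 (SE 0.0684, 95% CI -0.093 to 0.21, limma adjusted p = 0.457) was not called, and an interval of that width leaves room for a rise of that upper bound. The sum of Hspa1a and Hspa1b was 1.37% and 1.55% of the Hspa8 level in control libraries and 2.38% and 2.37% after Hnrnpk siRNA (exact two-sided permutation p = 0.333, n = 2 each, the smallest this design can give). The inducible form thus remained a small share of these HSP70 transcripts on the RPKM scale. Of the Hspa8 transcript, 84.5% is shared at 95% identity or more with 6 other annotated genes, 5 of them pseudogenes, so its level is uncertain.

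Hsph1 (ENSMUSG00000029657, chromosome 5, 149614287 to 149636376, minus strand) encodes HSP105, which releases nucleotide from HSP70. It was at 46.8 and 54.5 RPKM in control libraries and at 74.7 and 71.5 RPKM after Hnrnpk siRNA. The control libraries differed from each other more than the depleted ones did, but all depleted values were higher. The log2 change was 0.53 (limma SE 0.0789, adjusted p = 0.000256). Among the 10 genes the pattern closest to that of Hsph1 was that of Hspa1b, at a distance of 0.114.

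Dnajb1 (ENSMUSG00000005483, chromosome 8, 83608193 to 83612653, plus strand) encodes HSP40, the J-domain cochaperone of HSP70. Its values were 55.8 and 51.6 RPKM, then 63.2 and 69.4 RPKM. The groups did not overlap, and the rise was the smallest of the 7 called, with a log2 change of 0.30 (limma SE 0.0714, adjusted p = 0.00423).

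Hsp90aa1 and Hsp90ab1 encode the inducible and the constitutive cytosolic HSP90. Hsp90aa1 (ENSMUSG00000021270, chromosome 12, 110690605 to 110702728, minus strand) was at 587 and 614 RPKM in control libraries and at 1001 and 949 RPKM after Hnrnpk siRNA, with no overlap. The log2 change was 0.70 (limma SE 0.0759, adjusted p = 3.27e-05). Hsp90ab1 (ENSMUSG00000023944, chromosome 17, 45567775 to 45573271, minus strand) was at 3497 and 3436 RPKM, then 3768 and 3742 RPKM. Its groups did not overlap either, yet its log2 change of 0.12 (SE 0.0930, 95% CI -0.093 to 0.32, limma adjusted p = 0.294) was not called. Hsp90aa1 made up 14.4% and 15.2% of the 2 transcripts' summed RPKM in control libraries and 20.99% and 20.2% after Hnrnpk siRNA (exact two-sided permutation p = 0.333, n = 2 each, again the smallest possible). The constitutive form thus stayed the more abundant in all 4 libraries. Hsp90aa1 shares 68.7% of its transcript with 3 pseudogenes at 95% identity or more, and Hsp90ab1 shares none with any annotated transcript at that cutoff.

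Hspb1 (ENSMUSG00000004951, chromosome 5, 135887919 to 135889563, plus strand) encodes the small heat shock protein HSP25 (HSP27 in humans), which holds unfolded proteins and binds the actin cytoskeleton. It was at 130.2 and 124 RPKM in control libraries and at 379 and 367 RPKM after Hnrnpk siRNA. The group means of 127 ± 4.32 and 373 ± 8.59 RPKM (SD, n = 2 each) gave a log2 change of 1.55 (limma SE 0.0653, adjusted p = 1.39e-07). The groups lay far apart relative to their spread. With the sign kept, so that every fall counts as lower, 98.6% of the genes tested had a lower log2 change. With this rise Hspb1 passed Hspa8: it lay below Hspa8 in both control libraries and above it in both depleted libraries, where it overlapped Hspd1. Part of the transcript (72.6%) is shared with Gm9817 and a pseudogene; Gm9817 was listed at 0.00361 RPKM at most.

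Hspd1 (ENSMUSG00000025980, chromosome 1, 55077835 to 55088243, minus strand), the mitochondrial HSP60, was at 306 and 354 RPKM in control libraries and at 382 and 362 RPKM after Hnrnpk siRNA. The depleted libraries lay above the controls, but the control libraries differed from each other by more than the gap between the groups. Its log2 change of 0.17 (SE 0.0832, 95% CI -0.012 to 0.36, limma adjusted p = 0.0887) was not called. It was called without control replicate 2 (log2 change 0.28, adjusted p = 0.0195). Its partner Hspe1, the HSP10 lid of the same chaperonin, runs from the opposite strand of the shared promoter and overlaps 112 exonic bases of Hspd1. Hspe1 rose from 273 and 309 RPKM to 364 and 419 RPKM, a log2 change of 0.43 (limma adjusted p = 0.00214). Of the Hspd1 transcript, 71.1% is shared with 3 pseudogenes.

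**Figure D3:**
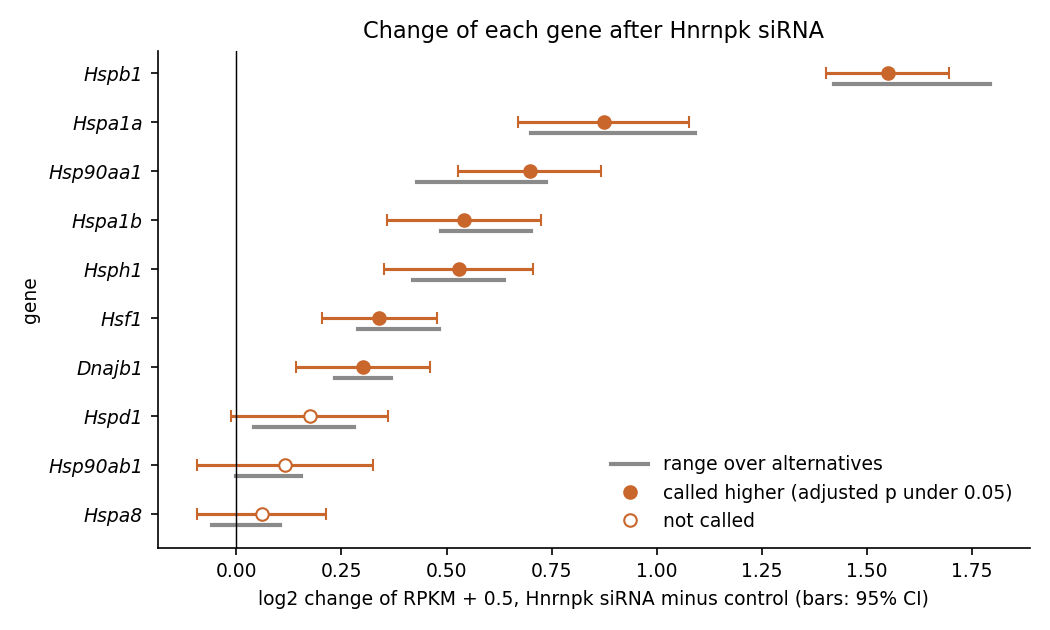
Log2 change of RPKM + 0.5 (Hnrnpk siRNA minus control) for each of the 10 genes; circles with bars are limma estimates with 95% confidence intervals, filled where called, and grey lines are the range over the alternative processings. Hspb1 stands highest at 1.55, and the intervals of Hspd1, Hsp90ab1 and Hspa8 include 0.

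Ordered by level, the control libraries ran from Hspa1a through Hspa1b, Hsf1, Hsph1 and Dnajb1, Hspb1, Hspa8, Hspd1 and Hsp90aa1 to Hsp90ab1. Hsph1 and Dnajb1 were neighbours whose control values overlapped; no other neighbours in that order did. After Hnrnpk siRNA Hsph1 lay above Dnajb1 in both libraries. The 10 genes together took 1.38% and 1.37% of the summed RPKM in control libraries and 1.59% and 1.52% after Hnrnpk siRNA.

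Around these genes, 9 lists of chaperones, cochaperones and regulators were described, holding 102 other genes, of which 94 were tested. Of those 94, 33 (35.1%) were called higher and 24 (25.5%) lower, against the 32.2% and 35.0% of all genes tested. Their median log2 change was 0.064. These chaperone lists therefore held calls in both directions. The difference of any list from all genes was not tested.

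Among HSF family members and regulators of HSF1, 4 of 9 tested genes including Hsf1 were called higher and 2 lower. Over all genes tested the shares were 32.2% and 35.0%. Sirt1, a deacetylase that acts on HSF1, rose from 26.3 and 26.5 RPKM to 48.8 and 44.6 RPKM (log2 change 0.81, limma adjusted p = 6.24e-06). Hsbp1, whose product binds HSF1 trimers and restrains them, rose from 107 and 106 RPKM to 171 and 185 RPKM (log2 change 0.73, limma adjusted p = 1.00e-05). Fbxw7, part of a ubiquitin ligase that targets HSF1, rose by 0.28 on the log2 scale, a call lost without Hnrnpk siRNA replicate 1 (0.24, adjusted p = 0.0930). The paralog Hsf2 fell from 18.8 and 17.4 RPKM to 13.8 and 14.3 RPKM (log2 change -0.36, limma adjusted p = 0.00148). Hsf4, at 1.53 and 1.36 then 0.977 and 1.12 RPKM, had a log2 change of -0.33 that was not called with GC trends removed or without Hnrnpk siRNA replicate 1.

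In the cytosolic HSP70 list 3 of 9 tested genes were called higher, beside 32.2% of all genes tested. All 3 (Hspa1a, Hspa1b and Hsph1) were already described. Hspa4, an exchange factor of the HSP110 group, fell from 331 and 343 RPKM to 274 and 264 RPKM (log2 change -0.32, limma adjusted p = 0.00187). Hspa2, the HSP70 of the male germline, had a log2 change of -0.34, not called without a filter or without Hnrnpk siRNA replicate 1. In the list of exchange factors and BAG cochaperones 5 of 12 tested genes were called lower and 1, Hsph1, higher. Over all genes tested the shares were 35.0% lower and 32.2% higher. The split of the list was 4 lower and 5 higher with GC trends removed and 5 lower and 3 higher under quantile normalization. Fewer genes of this list were called lower when either Hnrnpk siRNA library was left out. Bag2, a cochaperone that blocks the ubiquitin ligase CHIP, fell furthest, from 13.6 and 11.8 RPKM to 3.08 and 3.32 RPKM (log2 change -1.83, limma SE 0.0897, adjusted p = 3.13e-07). Stub1, which encodes CHIP itself, fell from 74.6 and 72.5 RPKM to 51.4 and 58.1 RPKM (log2 change -0.43, limma adjusted p = 0.000567).

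Of 15 tested J-domain genes, 9 were called higher (Dnajb1 among them) and 2 lower, beside 32.2% and 35.0% of all genes tested, and the median log2 change was 0.30. The difference of the list from all genes was not tested. Dnaja1, the type I partner of HSC70, rose from 11.1 and 12.8 RPKM to 18.9 and 19.1 RPKM (log2 change 0.65, limma adjusted p = 6.88e-05). Dnajb9 and Dnajb11, which work in the endoplasmic reticulum, rose by log2 changes of 1.15 and 0.58 (limma adjusted p = 1.08e-06 and 4.52e-05). Dnajb12, of the endoplasmic reticulum membrane, fell from 18.7 and 18.2 RPKM to 9.37 and 9.74 RPKM (log2 change -0.91, limma adjusted p = 3.22e-06). Dnajb13, of sperm flagella and cilia, had a log2 change of -0.35, not called without Hnrnpk siRNA replicate 1.

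Of 21 tested genes of HSP90 and its cochaperones, 7 were called higher and 6 lower, beside 32.2% and 35.0% of all genes. Fkbp5, an immunophilin of steroid receptor complexes, fell from 28.2 and 28.5 RPKM to 13.3 and 13.8 RPKM (log2 change -1.04, limma adjusted p = 1.18e-06). Tomm34 and Nudc fell by 0.54 and 0.33 on the log2 scale. Cdc37l1, a relative of the kinase cochaperone CDC37, rose by 0.42. Chordc1 and Sugt1 had log2 changes of 0.32 and 0.25; the first was not called with GC trends removed (adjusted p = 0.0712) nor the second without control replicate 1 (adjusted p = 0.0607).

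Among 7 tested small heat shock protein genes 3 were called higher and 2 lower, beside 32.2% and 35.0% of all genes. Cryab, the αB-crystallin gene, rose further than any of the 10 genes, from 3.68 and 3.25 RPKM to 29.5 and 27.6 RPKM (log2 change 2.87, limma SE 0.0808, adjusted p = 2.34e-08). Hspb8, a partner of BAG3 in selective autophagy, had a log2 change of 0.29 that was not called without a filter or without control replicate 2. Hspb11, which despite its name is a ciliary transport subunit, fell from 3.23 and 3.09 RPKM to 1.502 and 1.478 RPKM (log2 change -0.88, limma adjusted p = 1.73e-05). Cryaa, of the eye lens, was at 0.701 and 0.748 then 0.424 and 0.469 RPKM, with a log2 change of -0.37 that was not called without Hnrnpk siRNA replicate 1.

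Of 14 tested genes of the cytosolic chaperonin TRiC and its partner prefoldin, 9 were not called, 2 were called higher and 3 lower. Beside this, 32.2% of all genes tested were called higher and 35.0% lower, 67.2% in all. The median log2 change of the 14 genes was -0.022. Pfdn4 rose by 0.39 and Tcp1, a core subunit, fell by 0.29 on the log2 scale (limma adjusted p = 0.000616 and 0.00266). Pfdn5 (0.30), Cct6b (-0.40) and Cct4 (-0.18) had calls that were lost when single libraries were left out. Quantile normalization gave 7 lower and 2 higher in this list, and leaving out 1 library at a time gave 1 or 2 lower, the 1 without Hnrnpk siRNA replicate 1, and 1 or 2 higher, the 1 without control replicate 1 or Hnrnpk siRNA replicate 2.

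Among 17 tested chaperones of mitochondria and the endoplasmic reticulum 9 were called higher and 3 lower, beside 32.2% and 35.0% of all genes. Calr, the calcium-binding lectin chaperone calreticulin, rose from 312 and 292 RPKM to 605 and 634 RPKM (log2 change 1.04, limma adjusted p = 2.25e-06), and Hspa13 and Hyou1, both of the endoplasmic reticulum, rose by 0.60 and 0.47. Trap1, the mitochondrial HSP90, fell from 140.5 and 141 RPKM to 82.2 and 87.1 RPKM (log2 change -0.73, limma adjusted p = 7.84e-06). Clpb, a mitochondrial disaggregase, and Sil1, an exchange factor of the endoplasmic reticulum, fell by 0.61 and 0.71 on the log2 scale.

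Finally, 19 genes outside the 10 that are known to be inducible by heat through HSF1 were tested. Of these, 10 were called higher and 4 lower, beside 32.2% and 35.0% of all genes tested, with a median log2 change of 0.21. The difference of this list from all genes was not tested. Besides Cryab and Dnaja1, Ubb, a polyubiquitin gene, rose from 399.7 and 403 RPKM to 554 and 613 RPKM (log2 change 0.54, limma adjusted p = 0.000177). Tcp1 fell as given above, and Stip1, which bridges HSP70 and HSP90, fell from 446 and 440.2 RPKM to 369 and 378 RPKM (log2 change -0.25, limma adjusted p = 0.00874). Fkbp4 had a log2 change of -0.25 that was not called without a filter, with GC trends removed or without Hnrnpk siRNA replicate 1. Bag3, an HSP70 cochaperone of selective autophagy named here after its value was seen, was at 26.9 and 22.9 RPKM, then 21.8 and 20.7 RPKM. Its log2 change of -0.22 (limma adjusted p = 0.0354) was not called under 6 of 13 alternatives, in which the adjusted p reached 0.241. The list held 2 lower calls without a filter, with GC trends removed or without Hnrnpk siRNA replicate 1, and 8 to 11 higher calls over all alternatives. Genes of this list therefore did not all move with Hspb1 and Hsp90aa1.

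**Figure D4:**
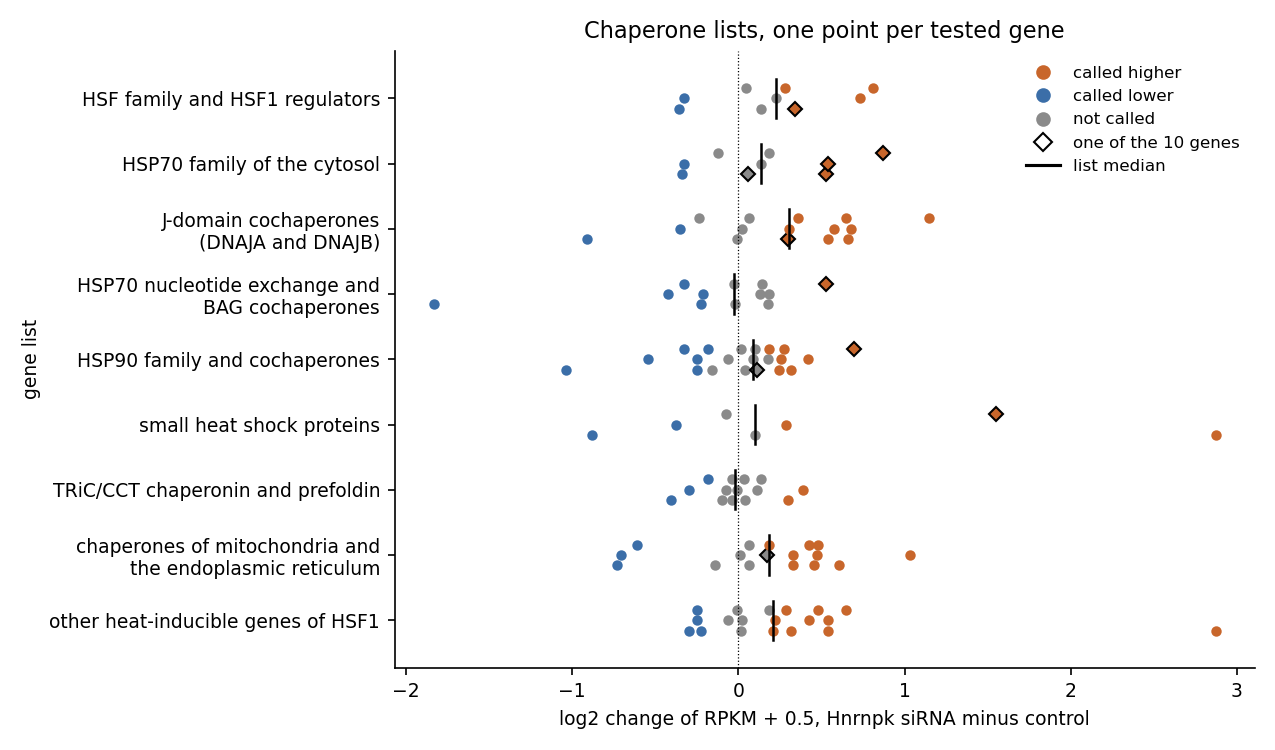
Log2 change of RPKM + 0.5 (Hnrnpk siRNA minus control) for the tested genes of 9 chaperone lists; each point is a gene, coloured by call, diamonds are the 10 genes described here and vertical bars are list medians. Points lie on both sides of 0 in every list, from Bag2 at -1.83 to Cryab at 2.87.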

How the data were processed

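RNA was described in the labels both as rRNA-depleted and as poly(A)-selected. RPKM per gene was deposited by the authors, with 1 column per library, so replicates were not pooled. The submitters' processing notes list BWA, SAMtools and mm9 with no roles; for the counter, annotation release and strandedness, these were not given in the sources used here. Libraries are described as biological replicates; whether they were separate cultures is not given, so p-values measure the spread between these libraries. Gene positions come from GENCODE M21 (GRCm38), in which 92.8% of identifiers were found, and promoters from RefSeq.

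The 12486 genes averaging 0.5 RPKM or more were fitted as log2(RPKM + 0.5) with limma 3.58.1 in R 4.3.3 (mean-variance trend, moderated two-sided tests, Benjamini-Hochberg over all genes tested). For low genes this scale gives too small a change. RPKM are not counts: in genes with 1 exon, 26.9% to 30.1% of values up to 5 units lay within 0.02 of a whole number, so reads were not recovered. The depth is therefore unknown; the best steps, which rest on this incomplete match, gave relative depths of 1, 0.985, 0.896 and 0.89 for the 2 control libraries and then the 2 Hnrnpk siRNA libraries, each in replicate order; whether a unit is a read or a pair is unknown. Transcripts were compared by BLAST 2.17.0 (at least 95% identity over at least 100 bases). The procedure was tested on simulated data in which 200 of 12486 genes were changed. It recovered 97% of log2 changes of 0.5 and 100% of those of 1, and 18 of 215 calls were false. Far more genes were called in the real data, so the simulation does not give the share of false calls there.

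The 10 genes and all lists were chosen with earlier results of these data known. Named besides the 10 are Hnrnpk, the markers, up to 3 called genes with the lowest p in each direction of each list, and the 5 nearest to Hsf1; Hspe1, Bag3, Gm20481 and Gm9817 were named after their values were seen. The alternatives were an added 0.1 or 1 RPKM, no filter or a minimum mean of 1 RPKM, median-ratio scaling, quantile normalization, removal of GC trends, no variance trend, a replicate block, each library left out, and Hspa1a and Hspa1b summed.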

Additional observations from a re-analysis of the deposited data

How the results depend on the processing

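Of the 10 genes, the 7 called higher (Hsf1, Hspa1a, Hspa1b, Hsp90aa1, Hspb1, Hsph1 and Dnajb1) kept their direction and call under every alternative run. Among them Hsp90aa1 ran from a log2 change of 0.43 under quantile normalization to 0.74 without Hnrnpk siRNA replicate 2. Hspa8 turned to -0.058 under quantile normalization (adjusted p = 0.454) and was called under no alternative. Hsp90ab1 became 0 there by construction, since it holds the same rank in every library, and was not called under any alternative. Hspd1 was called with a replicate block (log2 change 0.17, adjusted p = 0.0353), and without 1 library at a time it ran from 0.069 to 0.28. Same-numbered libraries did not deviate together (r = 0.027 across 12486 genes, which are not independent replicates), so the numbers were not taken as pairs; the block gave 4162 genes higher and 4460 lower, against 4025 and 4371. No scaling moved the median over all genes by more than 0.1. Read depth behind each value is not known, since whole reads were not recovered.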

Other observations

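Heat shock element letters were also counted beyond the 10 genes, as a description. Of the 87 other listed genes with a promoter window, 19 held a pair of pentamers and 3 held a run of 3: Chordc1 (log2 change 0.32), Hspe1 (0.43) and Dnajb6 (0.021, not called by limma). Among all 8803 tested genes with a window, 50 held a run of 3, of which 38% were called higher and 40% lower, against 32.0% and 35.6% of the 8803. For the 1201 genes with a pair, 32.8% were called higher and 32.9% lower. These counts cover letters in windows of 300 bases around annotated starts, and binding of HSF1 was not measured here.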
